A study of Mus musculus with 2 samples.

Results

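This report describes 9 genes that form the positive limb and the stabilising loop of the mammalian circadian clock, found by symbol in a deposited table of 24229 genes. They encode the activators BMAL1 (Arntl), CLOCK (Clock) and NPAS2 (Npas2), the REV-ERB receptors (Nr1d1 and Nr1d2), the receptors RORα and RORβ (Rora and Rorb) and the DEC repressors (Bhlhe40 and Bhlhe41). RNA was sequenced from the suprachiasmatic nucleus (SCN), the hypothalamic pacemaker, of wild-type C57BL/6 mice at postnatal day 68. Mice entrained for 4 weeks to a short T-cycle (ST), a light-dark schedule of set period, were compared with mice entrained to a normal one (NT), with 8 mice per group. All mice of both groups had spent 7 days in constant darkness before entrainment, and tissue was cut from 250 µm slices at circadian time 4 h, when the mice had again been in darkness for 5 days. Each group is 1 library, and the sources used here give neither the periods of the cycles nor how many mice were pooled into a library.

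BMAL1 pairs with CLOCK or NPAS2 and binds E-box sequences, through which it activates the period and cryptochrome genes as well as Nr1d1, Nr1d2, Bhlhe40 and Bhlhe41. The REV-ERBs are haem-binding receptors without an activation helix that repress Arntl, while the RORs activate it through the same response elements. DEC proteins compete for E-boxes and so restrain BMAL1 and CLOCK. In the SCN of nocturnal rodents REV-ERB transcripts are abundant by day and Arntl transcripts by night.

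The promoters of Arntl, Nr1d1, Nr1d2 and Bhlhe41 are shown because they hold, in the window from 250 bases before to 50 bases after an annotated start, letters of the motifs through which these factors are known to act on one another. The windows are RefSeq sequences of build GRCm38.p6, and each was found 1 time, without a mismatch, on the same chromosome of mm9, the build named for the deposited data, whose coordinates are given here. Capitals mark matches, on either strand, to the E-box CACGTG, its variant CACGTT, the receptor motif AGGTCA or the overlapping motif TAGGTNA.
Arntl (chr7:120350775-120351074, plus strand): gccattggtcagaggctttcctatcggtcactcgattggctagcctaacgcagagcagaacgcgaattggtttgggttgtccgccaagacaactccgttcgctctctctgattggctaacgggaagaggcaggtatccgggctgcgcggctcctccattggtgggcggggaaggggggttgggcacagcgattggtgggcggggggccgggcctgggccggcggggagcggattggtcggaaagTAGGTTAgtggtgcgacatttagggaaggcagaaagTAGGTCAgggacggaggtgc
Nr1d1 (chr11:98636642-98636941, minus strand): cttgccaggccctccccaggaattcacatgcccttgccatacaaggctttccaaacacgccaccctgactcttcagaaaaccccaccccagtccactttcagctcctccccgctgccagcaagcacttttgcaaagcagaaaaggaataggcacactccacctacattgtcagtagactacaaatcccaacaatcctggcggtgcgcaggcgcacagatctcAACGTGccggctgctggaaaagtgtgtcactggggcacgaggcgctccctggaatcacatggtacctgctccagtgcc
Nr1d2 (chr14:19071571-19071870, minus strand): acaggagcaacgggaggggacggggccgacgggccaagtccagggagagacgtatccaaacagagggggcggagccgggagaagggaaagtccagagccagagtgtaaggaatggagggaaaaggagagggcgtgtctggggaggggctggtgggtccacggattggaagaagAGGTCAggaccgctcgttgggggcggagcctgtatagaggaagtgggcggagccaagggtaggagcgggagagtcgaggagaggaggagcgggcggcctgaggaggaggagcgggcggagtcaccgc
Bhlhe41 (chr6:145813891-145814190, minus strand): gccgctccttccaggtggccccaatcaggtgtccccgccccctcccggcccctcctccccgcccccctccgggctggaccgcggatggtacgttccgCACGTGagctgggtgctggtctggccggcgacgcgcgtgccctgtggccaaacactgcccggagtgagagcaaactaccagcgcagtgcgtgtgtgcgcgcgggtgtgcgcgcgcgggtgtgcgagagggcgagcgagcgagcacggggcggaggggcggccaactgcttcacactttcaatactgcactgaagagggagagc

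The Arntl window held TAGGTNA 2 times, beginning 6 bases before the annotated start and at base 31 counted from it, and AGGTCA lies within the second of these matches. The motif TAGGTNA was present in 8.29% of all 32851 promoter windows of the table and AGGTCA in 16.3%. Nr1d2 held AGGTCA 77 bases before its start, and Nr1d1 held CACGTT, a sequence found in 4.68% of windows, 28 bases before its start on the opposite strand. Bhlhe41 was the only member with CACGTG, at 153 bases before its start, against 7.15% of all windows. Of 8 members with a window, Clock had AGGTCA and Rorb CACGTT at an alternative start, and no match was found for Npas2 and Rora; Bhlhe40 had no entry. A match to these letters describes the sequence and is not evidence of binding.

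The ST library held 19476800 counts and the NT library 24790727. Library size factors were 0.89 for ST and 1.12 for NT, and 14343 genes passed a filter of 50 on the normalised count averaged over both libraries. All 9 clock genes passed that filter. All 13 listed markers of SCN neurons also passed it. Among them were the developmental regulator Six6 at 19.8 RPKM in ST and 20.9 RPKM in NT and the vasopressin gene Avp at 656 and 563 RPKM. No other tissue was available for comparison, so passing the filter does not establish SCN identity. Markers of several non-neuronal cell types were lower in the ST library, and their values stand beside the Rora result.

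All 9 genes were present at similar levels in both libraries. The ratio of ST to NT ranged between 0.904 for Rora and 1.2 for Npas2, whose value rested on few reads. None of the 9 differed by 2-fold, a size that 0.0209% of all measured genes reached as higher and 0.23% as lower in ST. At least 1.1-fold higher were 2 members, Nr1d1 and Npas2, where the background was 11.4% of measured genes, and 1 member, Rora, was at least 1.1-fold lower, against 15.4%, though with scaling by total counts 0 members were. Among the 8067 genes averaging at least 500 normalised counts, which include all members but Npas2, 5.34% were 1.1-fold higher and 7.23% 1.1-fold lower. The 95% counting interval of the ratio lay above 1 for 2 members, Nr1d1 and Rorb, and below 1 for 1, Rora, whereas 7.81% and 10.2% of all measured genes had such intervals. In the more abundant 8067 genes those shares were 10.4% and 12.1%. The median log2 ratio of the 9 genes was 0.06, with 5 higher and 4 lower, and the median of all measured genes was -0.00, with 7050 higher and 7292 lower. Biological spread was not measured, as neither group has a replicate, so these are differences between libraries and the intervals cover counting error only.

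**Figure D1:**
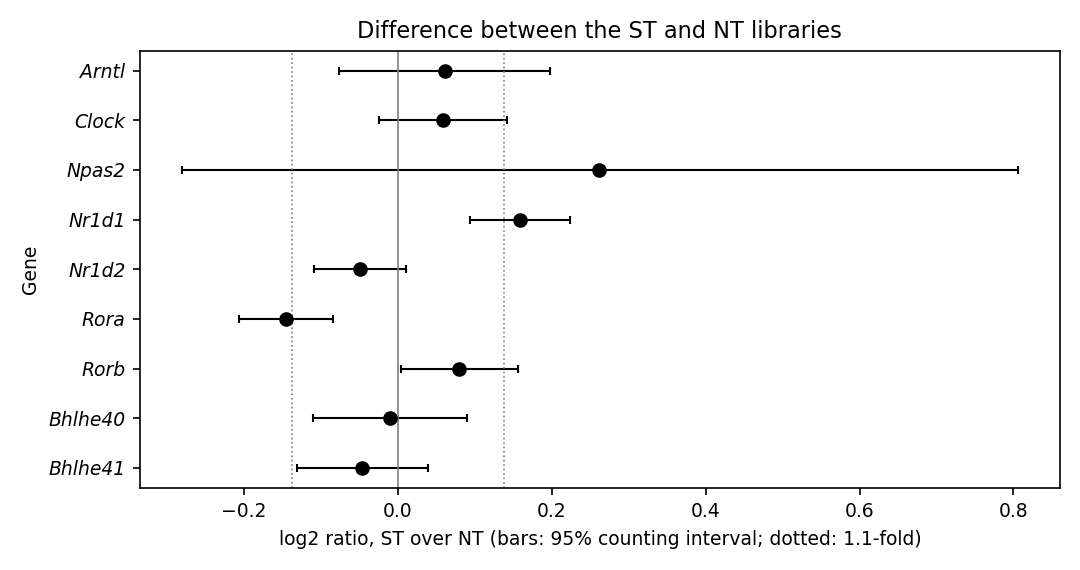
Log2 ratio of ST over NT for each of the 9 genes (x axis), with the 95% counting interval as a bar and 1.1-fold as dotted lines. Nr1d1 at 0.16 and Rorb at 0.08 lie above 0 and Rora at -0.15 lies below it with their whole intervals, and the wide bar of Npas2 reflects 58 and 61 reads.

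**Figure D2:**
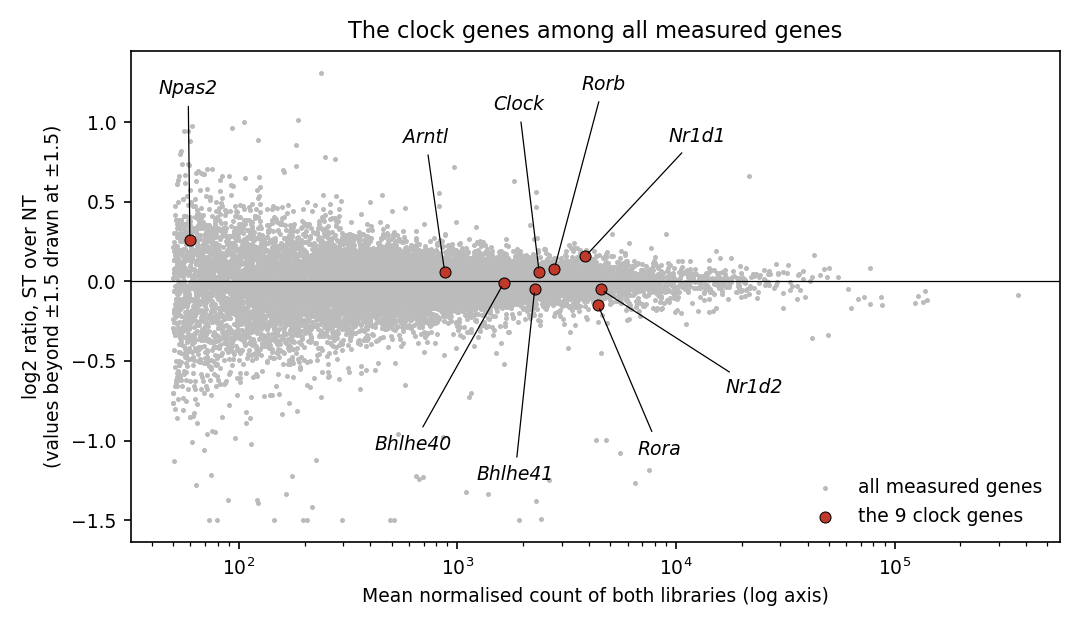
Log2 ratio of ST over NT against the mean normalised count for all 14343 measured genes (grey) and the 9 clock genes (red, labelled). The 9 genes lie within the cloud of measured genes. Of genes averaging at least 500 counts, 8.64% lie as far from 0 as Nr1d1 and 10.96% as far as Rora.

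Transcript levels per length placed the REV-ERB receptors first. In RPKM, reads per kilobase of exonic length and per 1000000 reads, Nr1d1 stood at 60.5 in ST and 53.7 in NT. Nr1d2 stood at 40.6 and 41.7. The DEC repressors came next, with Bhlhe40 at 23.9 RPKM in ST and 23.8 in NT and Bhlhe41 at 16.2 and 16.6. Rora had 14.6 RPKM in ST and 16.0 in NT, Arntl 14.0 and 13.3, Clock 12.5 and 11.9, and Rorb 11.8 and 11.1. Npas2 was far below the others at 0.939 RPKM in ST and 0.775 in NT. This order was the same in both libraries, but it depends on the length used. By counts, Rora (3708 in ST and 5176 in NT) exceeded Nr1d1 (3615 and 4088). The length lay near the annotated exonic length, 2904 against 2925 bases for Arntl and 13053 against 13099 for Rora. For Npas2 it was 3173 against 4789 bases. The intervals of levels and shares do not cover the choice of length. Of all measured genes, 7.61% had a higher RPKM than Nr1d1 in ST and 8.58% in NT, whereas 96.3% and 97.8% had a higher RPKM than Npas2. Neighbours in the middle of the order were close. The Poisson intervals of Rora (14.1 to 15.1 RPKM) and Arntl (13.1 to 15.0) overlapped in ST, and the lower bound of Clock (11.9995 RPKM) lay below the upper bound of Rorb (12.2). In NT those of Bhlhe41 (16.0 to 17.3) and Rora (15.6 to 16.4) overlapped, and Arntl (12.5 to 14.2), Clock (11.5 to 12.4) and Rorb (10.7 to 11.5) followed without overlap, although the bounds of Clock and Rorb nearly met.

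**Figure D3:**
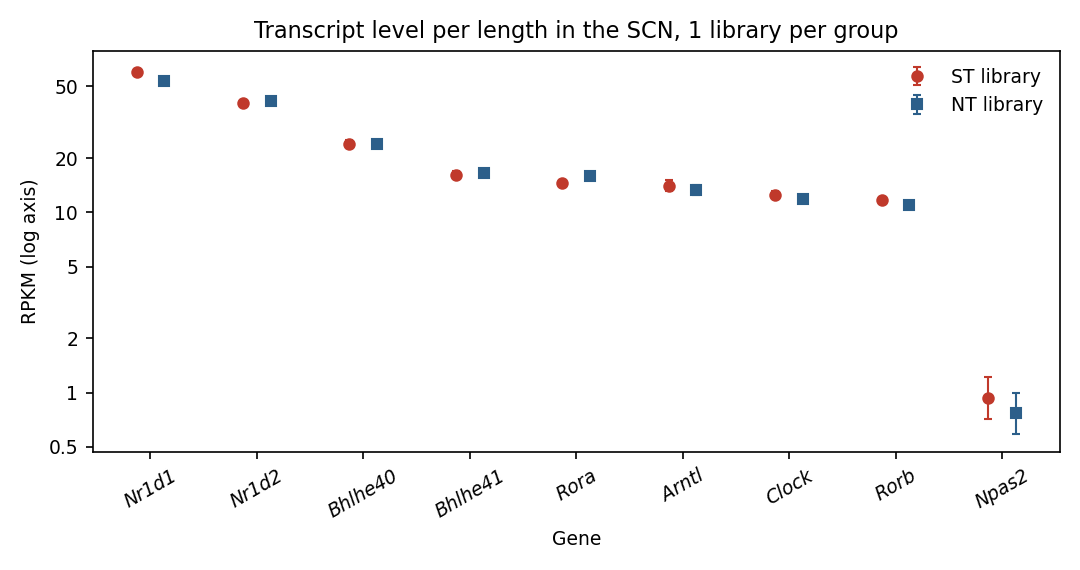
Transcript level per length (RPKM, log axis) of the 9 genes in the ST library (circles) and the NT library (squares), with 95% Poisson intervals that are mostly smaller than the symbols. Nr1d1 is the most abundant, at 60.5 and 53.7 RPKM, and Npas2 the least, at 0.939 and 0.775 RPKM.

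The activators lay slightly higher in ST, with intervals that held no difference. Arntl (ENSMUSG00000055116, chr7:120350979-120457636), the obligate partner of the activating complex, had 794 counts in ST and 961 in NT, a ratio of 1.04 with a counting interval of 0.948 to 1.15. Clock (ENSMUSG00000029238, chr5:76639992-76733817), which carries histone acetyltransferase activity, had 2147 counts in ST and 2603 in NT, a ratio of 1.04 (0.983 to 1.103). Per length, Arntl exceeded the sum of Clock and Npas2 1.04-fold in ST and 1.05-fold in NT.

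Npas2 (ENSMUSG00000026077, chr1:39251049-39419031), which can stand in for CLOCK in mice, had 58 counts in ST and 61 in NT. Its ratio of 1.2 had an interval of 0.823 to 1.75, so neither a rise nor a fall of this size was detectable at this depth. Clock made up 93.0% of the Clock and Npas2 transcripts per length in ST (interval 91.1% to 94.6%) and 93.9% in NT (92.3% to 95.3%), with overlapping intervals.

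The REV-ERB receptors differed from each other in their ratios, judged by counting error only. Nr1d1 (ENSMUSG00000020889, chr11:98629246-98636647), which encodes REV-ERBα, had 3615 counts in ST and 4088 in NT. It was 1.12-fold higher in ST (interval 1.07 to 1.17), and 22.2% of all measured genes, or 8.64% of those averaging at least 500, lay as far from no difference. Nr1d2 (ENSMUSG00000021775, chr14:19036568-19071641), which encodes REV-ERBβ and is largely redundant with Nr1d1 in mouse liver, had 3950 counts in ST and 5160 in NT, a ratio of 0.966 (0.927 to 1.01). The ratio of Nr1d1 to Nr1d2 transcripts per length was 1.49 in ST and 1.29 in NT. That shift of 1.16-fold (interval 1.09 to 1.23) does not depend on how the libraries are scaled. Nr1d1 made up 59.8% of REV-ERB transcripts in ST (58.7% to 60.9%) and 56.3% in NT (55.3% to 57.3%), and these counting intervals did not overlap. How often other gene pairs of like abundance shift as far was not computed.

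Nr1d1 lies tail to tail with Thra, the gene of thyroid hormone receptor α, which is transcribed from the opposite strand. The genes overlap over 1075 bases (chr11:98629246-98630320), and 263 exonic bases, 8.42% of the exonic length of Nr1d1, belong to both. The deposited counts of Nr1d1 and Thra are fractional and add up to whole numbers within 1e-05, 14646 in ST and 17485 in NT, as when reads are divided between them. Thra itself stood at 123 RPKM in ST and 118 in NT, with a log2 ratio of 0.06 (1.01 to 1.07). The summed counts of both genes had a log2 ratio of 0.080 (1.03 to 1.08), against 0.16 for Nr1d1 as deposited. Thra supplied 11031 of the summed counts in ST and 13397 in NT. The sum therefore mostly follows Thra and cannot show how far shared reads alter the Nr1d1 value. The sources used here do not say how many reads of Nr1d1 came from the shared exons, or whether counting used strand.

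Of the ROR receptors, Rora lay below and Rorb slightly above no difference. Rora (ENSMUSG00000032238, chr9:68501593-69236053), an activator of Arntl that is widely expressed in brain, had 3708 counts in ST and 5176 in NT. It was lower in ST, with a ratio of 0.904 (0.867 to 0.943), and 25.002% of all measured genes, or 10.96% of those averaging at least 500, lay as far from no difference. With scaling by total counts its log2 ratio was -0.13, less than 1.1-fold lower. Rorb (ENSMUSG00000036192, chr19:19005095-19185686), whose expression marks sensory and circadian structures such as the SCN, retina and pineal gland, had 2539 counts in ST and 3032 in NT. It was higher in ST by a ratio of 1.06, with an interval of 1.002 to 1.11 whose lower bound lay just above 1, and 47.9% of all measured genes, or 34.5% of those averaging at least 500, lay as far from no difference. The ratio of Rora to Rorb transcripts per length was 1.24 in ST and 1.45 in NT, a shift of 0.855 (0.799 to 0.916). Rora made up 55.3% of the pair in ST (54.1% to 56.6%) and 59.1% in NT (58.0% to 60.2%).

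Rora overlaps an antisense transcript, CT009708.1, in 82 exonic bases, or 0.626% of its exonic length. That transcript took 1.03 estimated counts in ST and 0.0468 in NT. Summing both genes gave a log2 ratio of -0.145, as did Rora alone.

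Several cell type lists were lower in the library in which Rora was lower. All 12 oligodendrocyte markers were lower in ST, with a median log2 ratio of -0.31 and a summed level of 986 RPKM in ST and 1205 in NT. The 6 markers of oligodendrocyte precursors had a median of -0.24 (135 and 158 RPKM in sum, 6 of 6 lower), and the 12 microglial markers one of -0.24 (158 and 184 RPKM, 12 of 12 lower). Of 13 endothelial and mural markers, 12 were lower (median -0.32, 150 and 174 RPKM), and of 10 meningeal markers all 9 measured ones were lower (median -0.94, 17.3 and 31.3 RPKM). Astrocyte markers differed less, with 9 of 12 lower and a median of -0.08 (1390 and 1414 RPKM). The 13 measured markers of neurons in general had a median of -0.00 (1948 and 1863 RPKM) and those of SCN neurons one of -0.05 (1397 and 1329 RPKM), with 8 of 13 lower. Examples are the microglial receptor P2ry12 at -0.51, the endothelial cadherin Cdh5 at -0.42, the meningeal proteoglycan Fmod at -1.75 and, among astrocyte genes, the water channel Aqp4 at -0.32. The astrocyte list went both ways, with 8 intervals below 1 and 2 above, those of Glul, its most abundant gene (log2 ratio 0.07, fold interval 1.03 to 1.07), and Aldoc (0.04, 1.01 to 1.05). So did the SCN neuron list, with 3 intervals above 1, as for Avp (0.21, 1.12 to 1.19), and 4 below, as for Vip (-0.24, 0.819 to 0.880). Markers of neurons in general had 3 above and 1 below. Over all measured genes, 7.81% had an interval above 1 and 10.2% below. None of the listed markers was at 0 in both libraries. The part of these cell types in the Rora and Nr1d1 values was not tested, and fewer cells of a type cannot be told apart from less RNA per cell in bulk tissue.

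The DEC repressors were, of the 9 genes, the closest to no difference. Bhlhe40 (ENSMUSG00000030103, chr6:108610623-108616919), which encodes DEC1 and responds to light in the SCN, had 1444 counts in ST and 1836 in NT, a ratio of 0.993 (0.926 to 1.06). Bhlhe41 (ENSMUSG00000030256, chr6:145806763-145814078), which encodes DEC2, had 1977 counts in ST and 2577 in NT, a ratio of 0.968 (0.913 to 1.03). Bhlhe40 made up 59.5% of DEC transcripts per length in ST and 58.9% in NT, and the ratio between them shifted by 1.03 (0.935 to 1.12). Bhlhe40 shares 118 exonic bases, 3.61% of its exonic length, with the antisense RNA AC156506.3, which took 12.1 estimated counts in ST and 18.7 in NT. The counts of that pair also add up to whole numbers, 1456 in ST and 1855 in NT. Clock, the remaining member with fractional counts, spans the intronic locus AC147239.1 with no exonic base in common, and the counts of those genes do not add up to whole numbers.

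Of 8 ratios formed between members, 4 had an interval clear of 1. These 4 reuse Nr1d1, Nr1d2, Rora and Rorb, so they are not separate results, and the share among gene pairs in general was not computed. Besides the pairs Nr1d1 to Nr1d2 and Rora to Rorb, Nr1d1 to Rora shifted by 1.23 (1.16 to 1.31) and Nr1d2 to Rorb by 0.914 (0.854 to 0.978). The intervals of Clock to Arntl at 0.998 (0.893 to 1.12), Nr1d1 to Arntl at 1.07 (0.963 to 1.19), Clock to Npas2 at 0.867 (0.593 to 1.27) and Bhlhe40 to Bhlhe41 held 1. Summed DEC transcripts exceeded Arntl transcripts 2.85-fold in ST and 3.03-fold in NT.

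**Figure D4:**
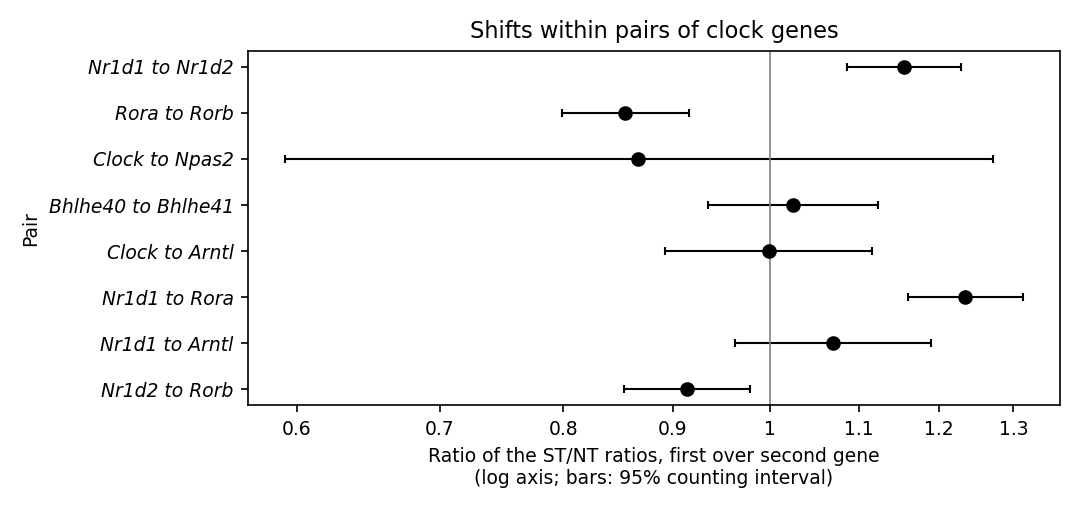
Ratio of the ST/NT ratios of the first and the second gene of 8 pairs (log axis), with 95% counting intervals. Nr1d1 lay above 1 against Nr1d2 (1.16) and Rora (1.23), and Rora below 1 against Rorb (0.855), while Clock to Arntl was at 0.998.

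Targets of the activators went both ways. Of 14 E-box targets of BMAL1 and CLOCK outside the 9 genes, 4 were higher and 9 lower in ST, with 2 intervals above 1 and 2 below and a median log2 ratio of -0.02. The remaining target, the cryptochrome Cry2, was at 0 because its ratio is the median that set the size factors. Intervals above 1 were found for 7.81% of all measured genes and below 1 for 10.2%. Avp, the vasopressin gene, had 7334 counts in ST and 8009 in NT (log2 ratio 0.21, fold interval 1.12 to 1.19), and the period gene Per1 3374 and 3677 (0.21, 1.105 to 1.21). The PAR bZIP factor Dbp lay lower in ST at 2519 counts against 3545 in NT (-0.16, 0.852 to 0.944). Gm129, the gene of the repressor CHRONO, was at 0.14 (0.933 to 1.29). The counts of Avp, Dbp and Gm129 are fractional, and the features behind this were not looked up.

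Among 4 measured targets of REV-ERBs and RORs, 2 were higher with an interval above 1, against 7.81% of all measured genes. The other 2 were near no difference. One of the 2 higher targets was Nfil3, a repressor of D-box genes, with 202 counts in ST and 198 in NT (log2 ratio 0.36, fold interval 1.05 to 1.57). Cry1 lay at -0.01 (0.916 to 1.08), and Fabp7, an astrocyte fatty acid binding protein whose gene REV-ERBα represses in mouse brain, at -0.05 (0.888 to 1.05). Arntl, the best known target of these receptors, lay between these groups at 0.06.

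Of 19 measured coregulators of BMAL1 and CLOCK, 14 were higher and 5 lower in ST, 6 with an interval above 1 and 0 below, where 7.81% of all measured genes, and 10.4% of those averaging at least 500, had an interval above 1. The median log2 ratio was 0.05, but 12 of the 19 have fractional counts, and among those with whole counts it was 0.02. Crebbp, the acetyltransferase CBP, had 1227 counts in ST and 1296 in NT (log2 ratio 0.26, fold interval 1.104 to 1.29). Mll1, the histone methyltransferase that CLOCK recruits, had 4484 and 5086 counts (0.15, 1.07 to 1.16), and the mediator subunit Med1, whose counts are fractional, was at 0.13 (1.01 to 1.19). Ddb1, a ubiquitin ligase subunit and the most abundant of the list, was at -0.01 (0.960 to 1.02).

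Of 11 REV-ERB corepressor and ROR coactivator genes, 6 were higher and 5 lower, with 1 interval above 1, 0 below and a median of 0.01. The background over all measured genes was 7.81% above and 10.2% below. The deacetylase Hdac3, which REV-ERBs recruit, was at a log2 ratio of -0.03 (fold interval 0.918 to 1.04). Gps2, a corepressor complex subunit, was at 0.10 (0.932 to 1.23), Tbl1xr1 at -0.13 (0.767 to 1.09) and the coactivator Ppargc1b at -0.13 (0.701 to 1.19).

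Genes of haem metabolism, which makes and removes the REV-ERB ligand, were lower in 8 of 12 cases, with 2 intervals below 1, 0 above and a median of -0.04. Of all measured genes 7292 of 14343 were lower, and 10.2% had an interval below 1, so these counts lie near the background. Fech, the ferrochelatase that inserts iron to form haem, had 926 counts in ST and 1326 in NT (log2 ratio -0.18, fold interval 0.810 to 0.959). Alas1, which catalyses the first step, had 763 and 1072 counts (-0.15, 0.818 to 0.987). Cpox was at -0.12 (0.838 to 1.01), the inducible haem oxygenase Hmox1 at -0.18 (0.681 to 1.13) and Hmox2, the most abundant of the list, at -0.05 (0.894 to 1.05).

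Relatives of the 9 genes gave no common direction. For comparison, 7.81% of all measured genes had an interval above 1 and 10.2% below. Of 9 other measured bHLH-PAS factors, 5 were higher and 4 lower (median 0.03), with 2 intervals below 1, those of the hypoxia factors Hif1a (log2 ratio -0.18, fold interval 0.841 to 0.927) and Epas1 (-0.13, 0.857 to 0.970). Epas1 is prominent in endothelium, and whether its value is tied to the endothelial markers was not tested. Arnt2, the most abundant, was at -0.03, Sim1 at 0.20 (0.962 to 1.37) and Npas3 at 0.17 (0.859 to 1.47). Among 6 measured repressors related to the DECs, 3 were higher and 3 lower (median -0.06). Hey1, a Notch target, was the only one with an interval clear of 1 (-0.26, 0.753 to 0.931). Hey2 was at -0.24 (0.707 to 1.01), Heyl at -0.12 (0.829 to 1.02) and Hes1 at 0.16 (0.859 to 1.45). Of 10 other measured receptors of the NR1 family, 4 were higher and 6 lower (median -0.04), with intervals above 1 for Thra and for the liver X receptor Nr1h3 (0.47, 1.03 to 1.87, 99 counts in ST and 90 in NT). Rarg was at -0.22 (0.710 to 1.04) and Rara at -0.12 (0.741 to 1.15). Another 10 members of these families had fewer reads than the filter requires, among them Ppara with 36 counts in ST and 43 in NT.

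**Figure D5:**
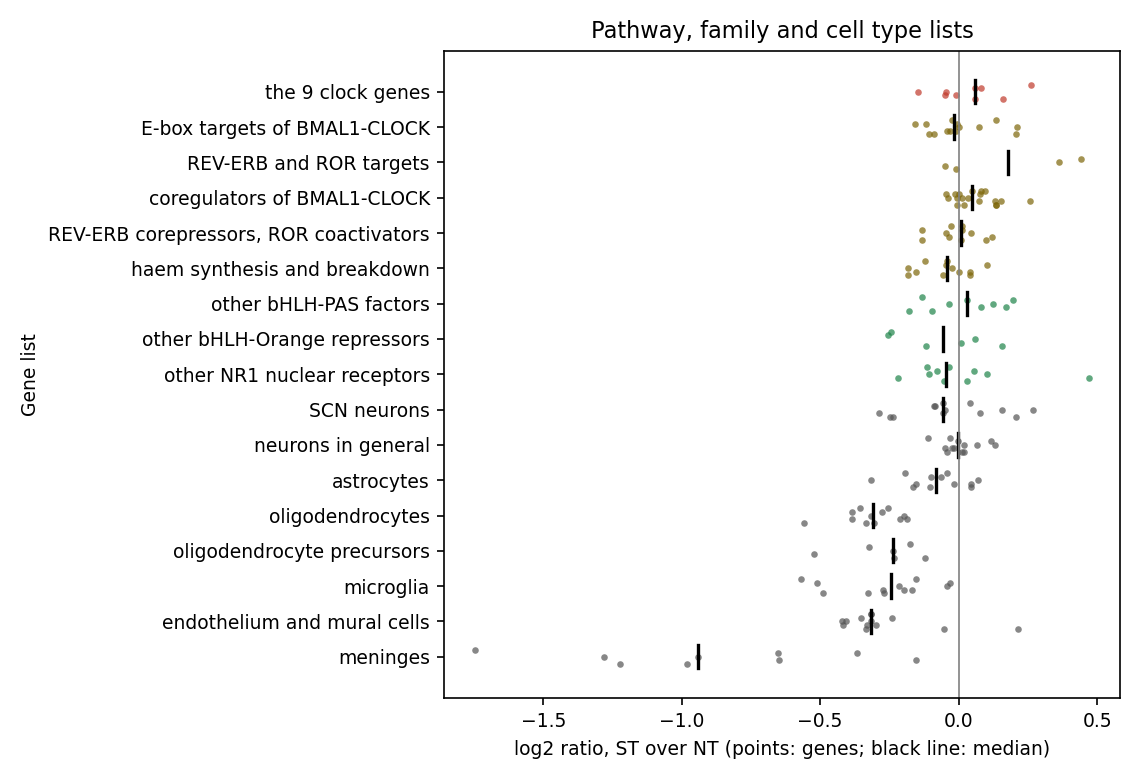
Log2 ratio of ST over NT of every measured gene (points) of the 9 clock genes, their pathway and family lists and the cell type marker lists, with the median of each list as a black line. The clock genes have a median of 0.06, the oligodendrocyte list -0.31 and the meningeal list -0.94.

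Over 2 libraries a pattern is a single ratio, so likeness was measured as the difference of log2 ratios among 82 measured genes of the pathway and family lists. Nearest to Npas2 (0.26) were Crebbp (0.26) and Per1 (0.21). With 58 counts in ST and 61 in NT, Npas2 has a fold interval of 0.823 to 1.75, too wide to fix its neighbours. Nearest to Nr1d1 (0.16) were Hes1 (0.16) and Mll1 (0.15), though Hes1 had only 114 and 129 counts (fold interval 0.859 to 1.45). Nearest to Rora (-0.15) were Alas1 (-0.15) and Dbp (-0.16). For all 9 genes the authors' deposited table gives an adjusted p-value of 1. Of the 9 genes, the lowest unadjusted p-values in the authors' deposited comparison were 0.218 for Nr1d1 and 0.265 for Rora. That of Rorb was 0.537. None of these is small, although the counting intervals of Nr1d1, Rora and Rorb lay clear of 1. No replicate lies behind the p-values, and the sources used here do not say what spread they allow for.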

How the data were processed

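Polyadenylated SCN RNA was sequenced as 1 library per group. CASAVA 1.8.2, TopHat 1.2, DESeq and mm9 are listed, without a role, in the submitters' processing notes. The deposited estimated counts (RC, per the file headers) are fractional for some genes, and were rounded. The length behind the authors' RPKM values lies near the annotated exonic length for all members but Npas2. Their RPM values sum to 1000000, and their comparison gives a fold ratio, its log2 and p-values, per the file headers. Not used were 3 columns of means whose names do not tie them to samples. Size factors were medians of ratios over genes read in both libraries, and log2 ratios used a pseudocount of 0.5. The 95% interval of a ratio rescales the Clopper-Pearson interval of its binomial share. Intervals between members are exact conditional ones, and those of RPKM Poisson ones. Reads are not independent molecules, so all cover counting error only. No test of the conditions was possible.

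Members and gene lists were chosen with earlier results of these data known, and calculations were tested on simulated data. Genes named beside the members overlap them, or are the most abundant of a list or among its largest differences (up to 4, or 2 for markers). A few genes that this rule names are not reported here. Cry1, Cry2, Six6, Vip, Aldoc and Ppara were chosen after their values were seen, as was the band of at least 500 counts. An older symbol was used for 5 genes. Exons are from GENCODE vM1 on mm9, whose bounds equal the deposited ones for 8 members, all but Npas2. Python 3.11.15, scipy 1.17.1 and, for TMM factors, edgeR 4.0.16 were used.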

Additional observations from a re-analysis of the deposited data

How the results depend on the processing

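No paired analysis was possible because there is only 1 library of either kind; leaving out a replicate was likewise not possible. Of 67 recalculated log2 ratios of the 9 genes, 66 stayed within their counting interval under scaling by total counts, TMM factors or neuronal genes, without rounding, with a pseudocount of 5, from the authors' RPKM or log2 fold change, or summed with an overlapping gene. The exception was Nr1d1 summed with Thra, an alternative chosen after seeing the data (0.080, against 0.16). Thra supplies most of those counts, so the summed value does not describe Nr1d1 alone. Scaling by total counts raised log2 ratios by 0.012, which left 0 members at least 1.1-fold lower. A filter of 200 left 1 member at least 1.1-fold higher, since it removes Npas2. Restricting the counts to genes with whole counts removes Nr1d1, Rora, Clock and Bhlhe40, and left 1 member at least 1.1-fold higher and 0 lower, 1 interval above 1 and 0 below. The other 38 recalculated counts of members moved by at most 1.5 times, and all 16 ratios between members stayed within their counting interval. All 119 list medians moved by no more than the counting error typical of a single gene of the list, which is not the error of the median itself. Within that margin the median of the other NR1 receptors went from -0.04 to 0.03 with a filter of 10. Counting error alone spans ratios of 0.823 to 1.75 for Npas2 and of 1.07 to 1.17 for Nr1d1 as deposited.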
